A study of Mus musculus with 6 samples.

Results

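The interleukin-1 (IL-1) receptor family is a set of cell surface receptors that carry signals of IL-1, IL-18, IL-33 and IL-36 into cells. Its members were taken from a list of 8 mouse genes, and each was read from the row of the expression table that the platform annotation assigns to that gene alone. This gave 6 of the 8 genes, Il1r2, Il1rap, Il1rl2, Il18r1, Il18rap and Sigirr, among 19938 genes compared. Il1r1 and Il1rl1 were not analysed here. The list follows gene family membership, and none of the 6 had more than 1 row.

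Marrow of mice labelled p65 knockout (KO) or p65 wild-type (WT) was profiled on 3 Affymetrix arrays per genotype. The labels do not say whether each array held 1 mouse or a pool. Sorting had kept c-kit+ Sca-1+ cells that lacked Flk2 and lineage markers, which enriches hematopoietic stem cells and early progenitors. RelA, or p65, belongs to the NF-κB transcription factors. The series title places the deletion in the hematopoietic compartment, while the Cre line or other means of deletion, the strain and the ages of the mice are not given in the sources used here.

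Receptors of this family share extracellular immunoglobulin domains, and all but the decoy receptor have a Toll/IL-1 receptor (TIR) domain inside the cell. A ligand joins a binding chain to an accessory chain, the paired TIR domains recruit the adaptor MyD88, and IRAK kinases and TRAF6 then activate NF-κB, of which p65 is a main effector. In mouse marrow, IL-1 is known to push stem and progenitor cells towards myeloid output. NF-κB thus lies downstream of these receptors, and the comparison asks whether the receptors' own transcripts differ when p65 is deleted.

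The arrays themselves differed. Median log2 signal ran from 5.72 to 5.75 in KO and from 5.81 to 5.98 in WT, and the SD of values from 2.26 to 2.29 in KO and from 2.03 to 2.22 in WT. WT replicate 1 stood apart, with the highest median, the lowest SD and a mean correlation of 0.934 with the other arrays, against 0.967 to 0.973 for the rest. Rela, the deleted gene, had log2 values of 7.33, 7.48 and 7.35 in KO and 7.52, 7.89 and 7.92 in WT. The groups did not overlap, but the log2 difference of -0.39 did not pass (limma adjusted p = 0.209) except under 4 of 15 alternatives. Which part of the gene was deleted and where its probes lie are not given in the sources used here, so this row is a limited check of the labels. Of the sort genes, Kit, which encodes c-kit, had a log2 difference of -0.30, Flt3, which encodes Flk2, of 0.06 and Cd34 of 0.04, and none passed. Kit passed under 3 of 15 alternatives, among them without WT replicate 1 (log2 difference -0.48, limma adjusted p = 0.04999), with KO lower. Both Flt3 and Cd34 changed sign with quantile or cyclic loess normalization. The Sca-1 gene was not analysed here.

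Because most family members gave low signals, each value was also set against 1194 olfactory and vomeronasal receptor genes, which blood cells are not known to use. The 95th percentile of these genes on an array is called the dim mark here. It lay at 5.56, 5.27 and 5.32 in KO and at 6.77, 5.58 and 5.56 in WT. It was therefore highest on WT replicate 1. Rows differ in how their probes respond, so levels of different genes were not compared with each other.

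None of the 6 members passed limma at an adjusted p under 0.05 over all genes, where 0.818% of all genes did. At an unadjusted p under 0.05, 2 of the 6 passed, Il18r1 and Sigirr, where 21.6% of all genes did. In all, 4 members were lower and 2 higher in KO, with a median log2 difference (KO minus WT) of -0.26, against -0.04 over all genes. Genes were also divided into 10 classes of like size by mean level. All members but Sigirr lay in the 5 lowest, whose medians run from -0.25 to -0.18. The family's median is thus near that of most genes of like level. For Il18r1, Il18rap and Sigirr all 3 KO values lay below all 3 WT values, where 15.4% of all genes showed such a separation with KO lower. With KO higher 0 members separated, where 19.2% of all genes did. The largest differences were thus at both chains of the IL-18 receptor and at the family's inhibitory receptor, and at both chains the values were near the dim mark. In sorted populations, fewer cells of a type and less RNA per cell cannot be told apart.

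**Figure D1:**
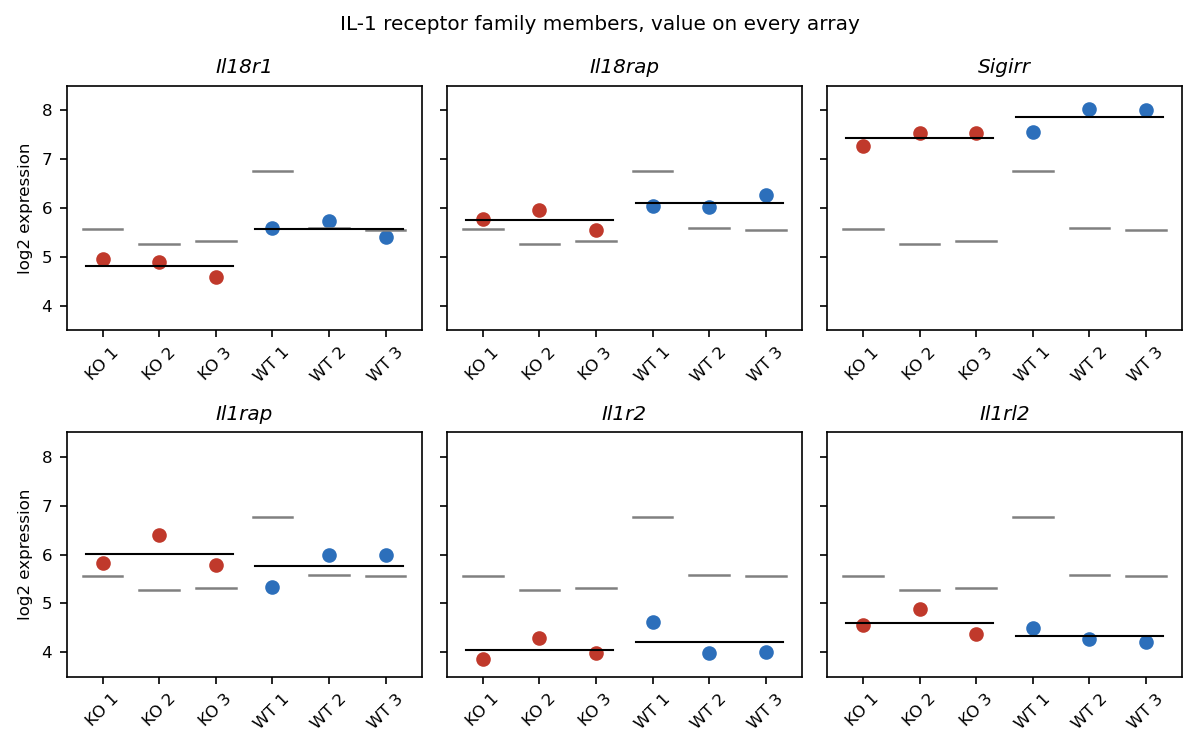
Log2 expression (vertical axis) of the 6 measured family members on each array (horizontal axis), with KO in red and WT in blue. Black lines are group means, and grey dashes are the dim mark of each array, the 95th percentile of 1194 olfactory and vomeronasal receptor genes. Sigirr lies above the mark on all 6 arrays and Il1r2 and Il1rl2 on none.

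Il18r1 encodes the chain of the IL-18 receptor that binds IL-18. Its log2 values were 4.96, 4.90 and 4.58 in KO, against 5.59, 5.74 and 5.40 in WT. The groups did not overlap. The means were 4.82 ± 0.20 in KO and 5.58 ± 0.17 in WT (SD, n = 3 each), a log2 difference of -0.76 (SE 0.16, 95% interval -1.14 to -0.39) or a KO signal 0.59 times that of WT. Because 0 KO arrays and 1 WT array had this row above the dim mark, the ratio cannot be read as one of expression levels. The limma adjusted p was 0.0783, and Il18r1 ranked 376 among all genes by p. By exact permutation of the 6 arrays, two-sided, p was 0.1 for Il18r1, Il18rap and Sigirr alike, and 3 arrays against 3 can give no smaller value. Between arrays of the same replicate number, the differences of Il18r1 were -0.63, -0.84 and -0.82. With the replicate number as a block Il18r1 passed (limma adjusted p = 0.0488), where 1.87% of all genes did. It also passed without WT replicate 1 (log2 difference -0.76, limma adjusted p = 0.0462), where 4.66% of all genes did. Over 14 alternatives its log2 difference ran from -0.85 to -0.56 and its adjusted p from 0.0208 to 0.335, and 3 of them passed.

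Only WT replicate 2 had an Il18r1 value above its array's dim mark. Above the median of the olfactory and vomeronasal receptor genes of the same array, Il18r1 stood 1.22, 1.39 and 1.08 log2 units higher in KO and 1.08, 2.08 and 1.77 higher in WT. On this scale WT replicate 1 lay within the KO values and the other WT arrays above them. Set against these genes, the groups of Il18r1 therefore overlapped through WT replicate 1. On the same scale Il18rap stood at 2.03, 2.44 and 2.04 in KO and 1.53, 2.35 and 2.64 in WT, and Sigirr at 3.52, 4.03 and 4.02 in KO and 3.04, 4.36 and 4.38 in WT. WT replicate 1 lay below every KO value for both genes, so the separation of their groups was lost on this scale.

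Il18rap encodes the accessory chain, which the IL-18 receptor needs to signal. Its log2 values were 5.77, 5.95 and 5.55 in KO, against 6.04, 6.01 and 6.27 in WT. All KO values lay lower, the nearest by little. The log2 difference was -0.35 (SE 0.16, 95% interval -0.72 to 0.01, limma adjusted p = 0.24). It stayed negative under all 14 alternatives, from -0.45 to -0.25, and passed under none. Il18rap lay above the dim mark on 3 KO and 2 WT arrays, WT replicate 1 being the exception.

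Sequences upstream of both IL-18 receptor chains are shown because p65 binds DNA at NF-κB motifs and both genes had separated groups. They are RefSeq windows of build GRCm38.p6 from 250 bases before to 50 bases after an annotated start. Il18r1 has 3 such windows, and the one with the lowest coordinate, chr1:40465302-40465601 on the plus strand, is printed first. The Il18rap window is chr1:40515112-40515411 on the plus strand, and capitals mark GGAANTTCC.
Il18r1: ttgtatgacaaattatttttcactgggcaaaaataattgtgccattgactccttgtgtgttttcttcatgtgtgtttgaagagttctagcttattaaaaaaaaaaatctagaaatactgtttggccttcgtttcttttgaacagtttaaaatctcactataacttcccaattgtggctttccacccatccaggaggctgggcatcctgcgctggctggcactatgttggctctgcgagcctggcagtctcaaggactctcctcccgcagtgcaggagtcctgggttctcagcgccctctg
Il18rap: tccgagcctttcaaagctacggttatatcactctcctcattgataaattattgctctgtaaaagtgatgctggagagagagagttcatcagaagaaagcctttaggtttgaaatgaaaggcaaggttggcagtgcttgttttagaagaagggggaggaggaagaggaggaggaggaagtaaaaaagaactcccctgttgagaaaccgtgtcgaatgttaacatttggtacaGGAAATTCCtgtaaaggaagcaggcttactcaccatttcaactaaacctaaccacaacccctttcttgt

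RefSeq gave windows for 7 of the 8 family genes, 11 in all. On both strands, the NF-κB consensus motif was found in 1 of the 11 windows, of Il1r1, and in 8.46% of 32851 windows of the genome's genes. The letters GGAANTTCC are a shorter form within the NF-κB family of sites and were chosen after the windows had been read. They occur in 4 of the 11 windows, each of a different gene, and in 0.928% of all windows. Because the letters were chosen from these windows, the shares cannot test for an excess in the family. The 29 bases around each match are given from the plus strand of chromosome 1, with the match in capitals. Likeness of the capitals follows from the choice of letters.
Il1r2: gctttttcaaGGAACTTCCgactactctg
Il1rl2: cattgcttaaGGAATTTCCtgcttctccc
Il1rl1: ggtaagtttaGGAATTTCCagtaagtgag
Il18rap: atttggtacaGGAAATTCCtgtaaaggaa

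The match starts 106 bases before the annotated start in Il1r2, 116 before in Il1rl2 and 19 before in Il18rap. In Il1rl1 it lies just after the start. None of the 3 Il18r1 windows holds either motif, although its difference was the largest of the family. A match is a description of these letters and not a binding site.

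Sigirr encodes a receptor with a TIR domain that restrains signalling by IL-1 and IL-18 receptors. Its log2 values were 7.26, 7.54 and 7.53 in KO, against 7.55, 8.02 and 8.01 in WT. WT replicate 1 lay just above the highest KO value and the other WT arrays clearly above it. The means were 7.44 ± 0.15 in KO and 7.86 ± 0.27 in WT (SD, n = 3 each), a log2 difference of -0.42 (SE 0.18, limma adjusted p = 0.22) or a KO level 0.75 times that of WT. Sigirr was the only member above the dim mark on all 6 arrays.

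The call on Sigirr turned on WT replicate 1 and on the scaling of arrays. Without WT replicate 1 its log2 difference was -0.58 and it passed (limma adjusted p = 0.0452). It also passed with quantile normalization (log2 difference -0.67, limma adjusted p = 0.0499), where 0.577% of all genes did. With cyclic loess normalization it was -0.68 (limma adjusted p = 0.0336), where 1.26% of all genes passed. With array weights, which give WT replicate 1 a weight of 0.116, both Sigirr (log2 difference -0.54, limma adjusted p = 0.0343) and Il18r1 (-0.73, limma adjusted p = 0.0208) passed, where 8.02% of all genes did. With the replicate number as a block Sigirr did not pass (limma adjusted p = 0.15). Over 15 alternatives it ran from -0.68 to -0.33 and 4 passed.

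Il1rap encodes the accessory chain shared by the receptors of IL-1, IL-33 and IL-36. Its log2 values were 5.83, 6.40 and 5.79 in KO, against 5.33, 5.99 and 5.99 in WT. The groups overlapped, with KO replicate 2 highest and WT replicate 1 lowest. The log2 difference was 0.24 (SE 0.24, 95% interval -0.31 to 0.79, limma adjusted p = 0.531), and it shrank to 0.02 without WT replicate 1 and to 0.04 without KO replicate 2. Il1rap lay above the dim mark on 3 KO and 2 WT arrays.

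Il1r2 encodes the decoy receptor, which binds IL-1 without signalling. Its log2 values were 3.86, 4.30 and 3.99 in KO, against 4.63, 4.00 and 4.02 in WT. Only WT replicate 1 was high, and the remaining arrays of both groups were mixed. The log2 difference was -0.16 (SE 0.21, limma adjusted p = 0.623). It turned to 0.044 without WT replicate 1 and was also positive with array weights and under quantile and cyclic loess normalization.

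Il1rl2 encodes the binding chain of the IL-36 receptor. Its log2 values were 4.56, 4.88 and 4.38 in KO, against 4.50, 4.27 and 4.22 in WT. The groups overlapped through WT replicate 1. The log2 difference was 0.28 (SE 0.17, limma adjusted p = 0.337), and it stayed positive under all 14 alternatives, from 0.15 to 0.52, with no call. Il1r2 and Il1rl2 lay below the dim mark on all 6 arrays, so neither was shown to be expressed above background in either genotype.

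Log2 differences varied with expression level in these arrays, and the members were set against genes of like level. The genes were divided into 10 level classes of like size by their mean over the 6 arrays. Il18r1, at -0.76, lay below the 5th percentile of its level class (-0.62, median -0.21), and Sigirr, at -0.42, below that of its own (-0.26, median 0.27). Il18rap, at -0.35, lay between the 5th and 95th percentiles of its class, from -0.58 to 0.40. Il1rl2, at 0.28, lay above the 95th percentile of its class (0.11, median -0.23). Of the 6 members, 2 thus lay under and 1 over the central range for their level, while Il1r2 and Il1rap lay inside it.

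**Figure D2:**
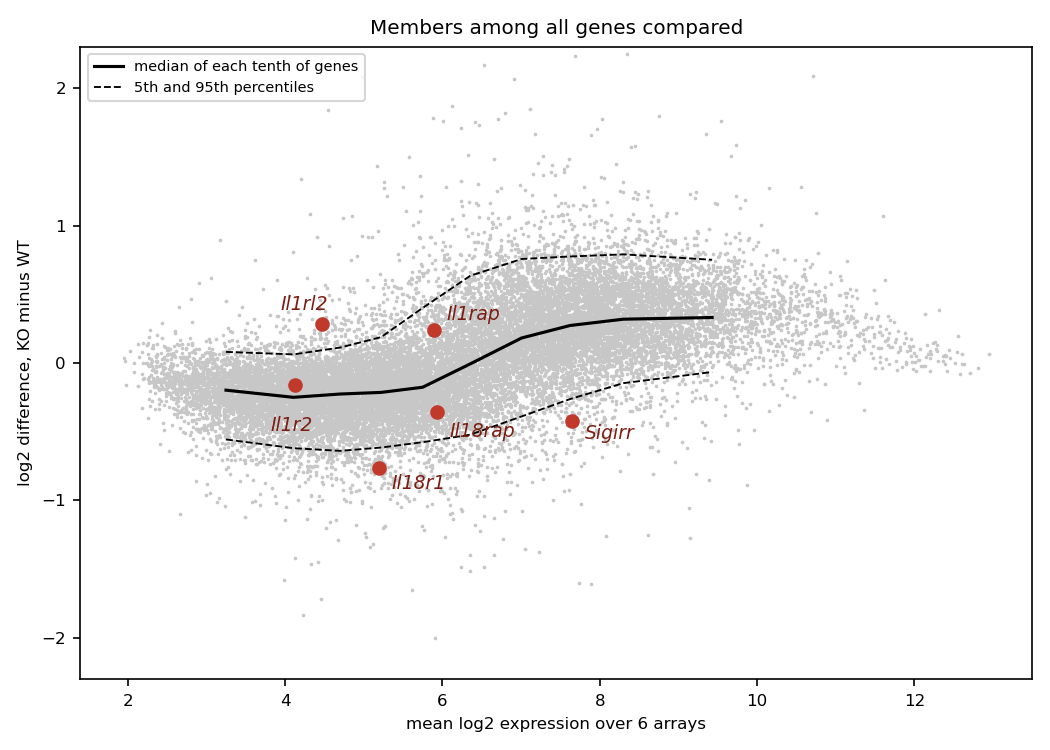
Log2 difference, KO minus WT (vertical axis), against mean log2 expression over 6 arrays (horizontal axis) for the 19938 genes compared, in grey, with the 6 family members in red. The solid line joins the medians of the 10 level classes and the dashed lines their 5th and 95th percentiles; 16 genes lie outside the plotted range. Il18r1 and Sigirr lie below the lower dashed line and Il1rl2 above the upper one.

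The family's genes lie mostly in a cluster. On mouse chromosome 1, 6 of them follow each other as Il1r2, Il1r1, Il1rl2, Il1rl1, Il18r1 and Il18rap in the RefSeq annotation, while Il1rap is on chromosome 16 and Sigirr on chromosome 7. Log2 differences in the cluster were -0.16 for Il1r2, 0.28 for Il1rl2, -0.76 for Il18r1 and -0.35 for Il18rap. With Il1r2 and Il1rl2 below the dim mark and no call on any of the 4, these values do not show whether the cluster's genes moved together or apart. Of 5 listed genes beside the cluster, 0 passed limma, 1 at an unadjusted p under 0.05, where 21.6% of all genes did. Map4k4, the neighbour on the Il1r2 side, had a log2 difference of -0.02. On the Il18rap side Slc9a4, which encodes a sodium-proton exchanger, had -0.16, Slc9a2, another exchanger gene, 0.04, Mfsd9 -0.32 (limma adjusted p = 0.292) and Tmem182 -0.68 (limma adjusted p = 0.174), and Slc9a4, Slc9a2 and Tmem182 were below the dim mark on all arrays. Tmem182 was -0.42 without WT replicate 1 and Mfsd9 -0.19 without KO replicate 3. The sign of Slc9a4 turned under quantile and cyclic loess normalization and without WT replicate 1.

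Among the ligands and their antagonists, the gene of IL-18 itself stood out. Of 11 measured genes 0 passed limma, 1 at an unadjusted p under 0.05, where 21.6% of all genes did. All 11 log2 differences were negative, with a median of -0.19, where 54.1% of all genes were negative. All but Il18bp lay in the 5 lowest level classes, whose medians run from -0.25 to -0.18, so the ligands' median is near that of genes of like level. Il18 had log2 values of 5.24, 5.79 and 5.37 in KO, against 5.91, 6.20 and 6.54 in WT. The groups did not overlap, and the log2 difference was -0.75 (SE 0.21, limma adjusted p = 0.123). Without WT replicate 1 it was -0.90 and passed (limma adjusted p = 0.0448), as it did with array weights. Il18 lay above the dim mark on 2 KO and 2 WT arrays. Above the median of the olfactory and vomeronasal receptor genes it stood at 1.497, 2.28 and 1.87 in KO and 1.40, 2.54 and 2.90 in WT, and on this scale the groups overlapped through WT replicate 1. Il18bp, whose product binds and neutralises IL-18, had -0.18 (limma adjusted p = 0.515) and was chosen for mention after its values were seen. Il1f5, the antagonist of the IL-36 receptor, had -0.20 and Il1f10 -0.22, and the sign of both turned under cyclic loess normalization. Of the 11 genes 8 lay below the dim mark on all arrays, among them Il1a, Il33 and Il1rn, the gene of the IL-1 receptor antagonist. Il1b was not among the 8, with 5.82, 5.41 and 5.39 in KO and 6.93, 5.71 and 5.33 in WT.

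**Figure D3:**
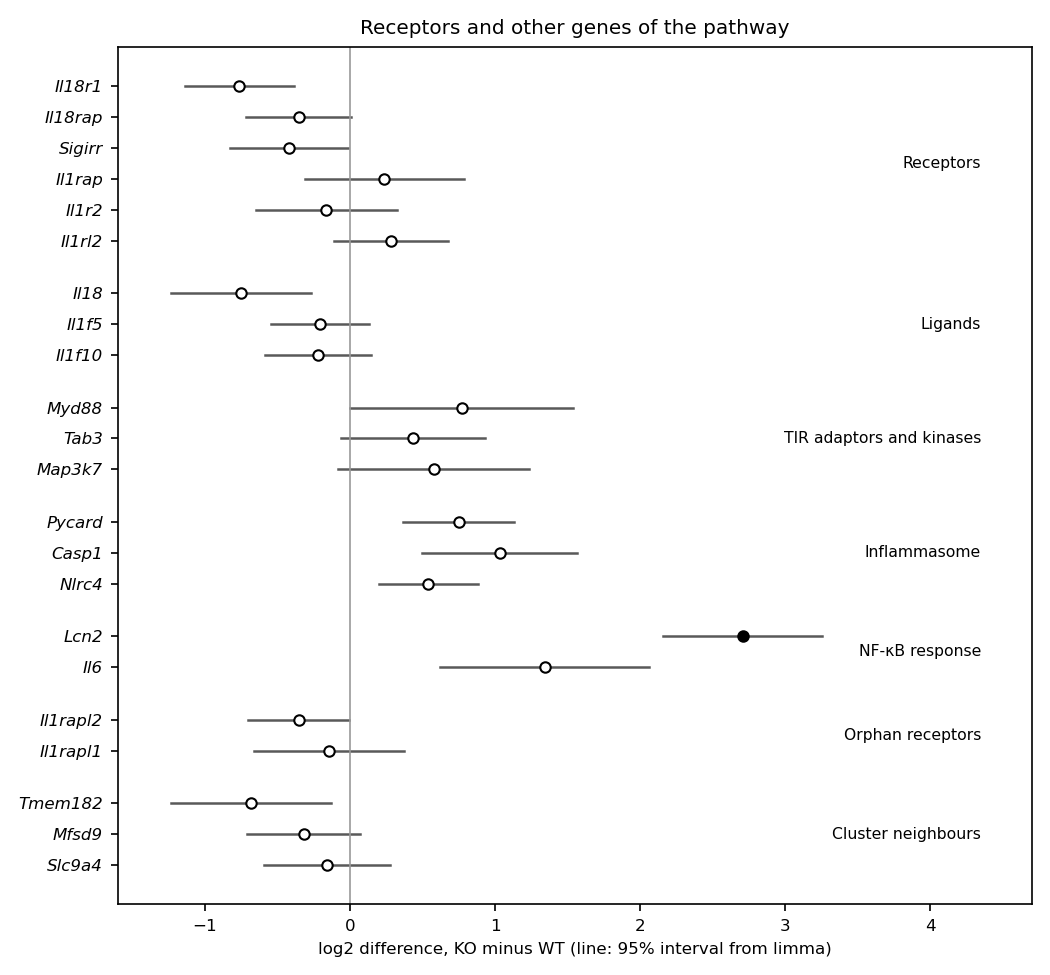
Log2 difference, KO minus WT (horizontal axis), of the 6 family members and of named pathway genes by group (vertical axis), with lines for the 95% interval from limma. The filled point passed at an adjusted p under 0.05 and open points did not. Lcn2, at 2.71, is the filled point, and Il18r1 and Il18 lie lowest, at -0.76 and -0.75.

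The enzyme and scaffold that mature IL-1β and IL-18 lay on the other side. Of 9 inflammasome genes 0 passed limma, 4 at an unadjusted p under 0.05, where 21.6% of all genes did. The median log2 difference was 0.40, with 7 positive and 2 negative, Nlrp1b at -0.42 and Nlrp1a at -0.13. The 5 genes above the dim mark on all arrays were in level classes with medians from 0.27 to 0.33. Casp1, the protease that cleaves both cytokines, had log2 values of 9.03, 9.10 and 8.85 in KO, against 7.47, 7.998 and 8.41 in WT. All KO values lay higher, and the log2 difference was 1.03 (SE 0.23, limma adjusted p = 0.0833). With the replicate number as a block Casp1 passed (limma adjusted p = 0.0488). Pycard, the ASC adaptor gene, had 9.45, 9.48 and 9.37 in KO, against 8.37, 8.79 and 8.89 in WT, a log2 difference of 0.75 (limma adjusted p = 0.0819). Without WT replicate 1 and with array weights both passed, and without that array the log2 differences were 0.79 for Casp1 and 0.59 for Pycard. Nlrc4, a sensor gene, had 0.54 (limma adjusted p = 0.118) and lay below the dim mark on all arrays, as did Nlrp3 and Nlrp1b. Casp1 lay above the 95th percentile of its level class (0.79, median 0.32), and Pycard just inside that of its own (0.75, median 0.33).

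Of 12 measured adaptor and kinase genes downstream of the TIR domain 0 passed limma, 1 at an unadjusted p under 0.05, where 21.6% of all genes did. Their median log2 difference was 0.13. Myd88, the adaptor gene, had log2 values of 7.70, 7.83 and 7.75 in KO, against 6.10, 7.46 and 7.40 in WT. WT replicate 1 was far below the other arrays. The log2 difference was 0.77 (limma adjusted p = 0.23), just under the 95th percentile of its level class (0.775, median 0.27). Without WT replicate 1 it was 0.33. Map3k7, which encodes the kinase TAK1, had 0.58 and Tab3, which encodes a TAK1 binding protein, 0.44, and neither passed under any of 15 alternatives. Without WT replicate 1 Map3k7 was 0.22 and Tab3 0.21. With all arrays, both lay between the 5th and 95th percentiles of their level classes, with medians of 0.32 and 0.18. Irak4 was not analysed here.

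Of 15 genes that IL-1 is known to induce through NF-κB, 1 rose, 0 fell and 14 did not pass, where 0.818% of all genes passed. The median log2 difference was -0.16, with 3 positive and 12 negative. Cxcl1, Cxcl2, Ptgs2, Traf1 and Csf2 lay below the dim mark on all arrays. Lcn2, which encodes lipocalin 2, had log2 values of 8.11, 8.43 and 7.65 in KO, against 5.60, 5.47 and 4.99 in WT. It rose by 2.71 (SE 0.24, limma adjusted p = 0.00335) and passed under all 15 alternatives, from 2.52 to 2.91. Lcn2 is also a gene of maturing granulocytes. The 2 orphan receptor genes of the family, Il1rapl1 (log2 difference -0.14) and Il1rapl2 (-0.35), lay below the dim mark on all arrays, and the sign of Il1rapl1 turned without WT replicate 1.

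By a rule on centred array profiles, 5 genes of 17157 lay closest to Il18r1 over the 6 arrays. Mpdz, which encodes a scaffold protein, differed from it by a root mean square of 0.09 log2 units, and Fxyd1, Ggn, Lrrc30 and Krtap4-1 by 0.11 to 0.12. Their log2 differences ran from -0.92 for Fxyd1, which fell (limma adjusted p = 0.0476), to -0.55 for Ggn. The other 4 did not pass. Differences near that of Il18r1 follow from the rule and are no separate result. Mpdz lay below the dim mark on all arrays and Lrrc30 on all KO arrays. The call on Fxyd1 was lost with quantile normalization and without each of the KO arrays, WT replicate 2 or WT replicate 3.

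Markers of cells that could carry these receptors were read on the same arrays. Of 10 granulocyte-monocyte progenitor markers, 9 rose and 0 fell (Elane by 3.98 on the log2 scale), where 0.818% of all genes passed. Their summed linear signal ran from 15551 to 18143 in KO and from 4047 to 4974 in WT. Of 9 stem cell markers, 1 fell, 0 rose and 8 did not pass. The marker that fell was Hlf, by 1.27 (limma adjusted p = 0.0485). With the replicate number as a block 4 of the 9 passed, where 1.87% of all genes did. Without WT replicate 1, 6 passed, where 4.66% of all genes did. The sum of the 9 ran from 824 to 1143 in KO and from 1390 to 2028 in WT. Whether these shifts have a part in the IL-18 receptor and Sigirr values was not tested.

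T and natural killer cells carry the IL-18 receptor. Of their 10 markers 6 lay below the dim mark on all arrays (Cd3d, Cd3g, Cd2, Ncr1, Klrb1c and Gzma), and the sum, 2604 to 2943 in KO and 1257 to 1727 in WT, was mostly that of Nkg7, which rose by 1.09 (limma adjusted p = 0.0483). The other 9 markers of that list had negative differences and did not pass. Among them, Cd3d had -0.57, Cd8a -0.57 and Ncr1 -0.53, above the 5th percentiles of their level classes (-0.62, -0.58 and -0.56). In 4 KO lay below WT on all arrays, where 15.4% of all genes showed this. The list's median was -0.26, and the 9 were in level classes with medians from -0.25 to -0.18. Of 8 group 2 innate lymphoid cell markers 0 passed limma, 3 at an unadjusted p under 0.05, where 21.6% of all genes did. All 8 differences were negative with a median of -0.44, where 54.1% of all genes were negative. The sum ran from 343 to 372 in KO and from 447 to 544 in WT. Il7r, Il2ra, Klrg1 and Il5 of that list lay below the dim mark on all arrays, in level classes with medians of -0.25 and -0.23. Rora, at -0.84 (limma adjusted p = 0.056), lay below the 5th percentile of its level class (-0.58). Gata3, at -0.44, lay below that of its own (-0.39), and the other listed markers lay above theirs. Of 12 mast cell and basophil markers 3 rose (Fcer1a, Hdc and Ms4a2) and 0 fell, where 0.818% of all genes passed. With the replicate number as a block 5 passed, where 1.87% of all genes did. Of the 12, 7 had positive and 5 negative log2 differences. Tpsab1, Tpsb2, Mcpt4, Cd200r3 and Mrgprb1 lay below the dim mark on all arrays. The sums ran from 1941 to 2443 in KO and from 930 to 1153 in WT. Of 10 mature neutrophil markers 0 passed limma, 3 at an unadjusted p under 0.05, where 21.6% of all genes did. Sums ran from 790 to 817 in KO and from 554 to 841 in WT. B cell (6 of 7 measured), erythroid (3 of 6) and megakaryocyte (5 of 6) lists each had 0 genes past limma's threshold. At an unadjusted p under 0.05 they had 0, 2 and 1, where 21.6% of all genes passed. The part of any of these cells in the receptor values was not tested.

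**Figure D4:**
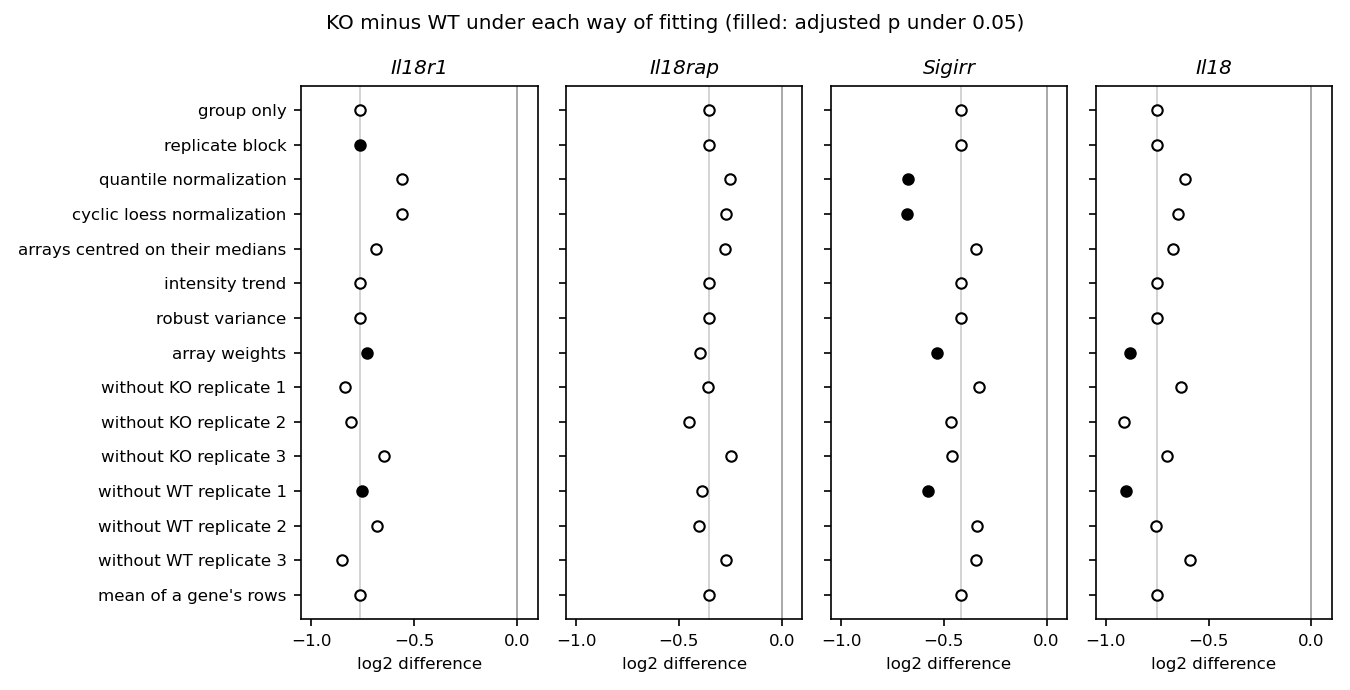
Log2 difference, KO minus WT (horizontal axis), of Il18r1, Il18rap, Sigirr and Il18 under each way of fitting (vertical axis), where filled points passed at an adjusted p under 0.05. All 4 genes lie below 0 in every row shown. Il18r1 passes in 3 rows, Sigirr in 4, Il18 in 2 and Il18rap in none.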

How the data were processed

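Values were taken on the log2 scale as the authors deposited them, in 1 table of 6 arrays. Partek, RMA and Affymetrix Expression Console appear in the submitters' processing notes, with no version or order. Per the labels' protocols, RNA was amplified with a NuGEN whole-transcriptome system, which can alter signal range. A Mouse Exon 1.0 ST array is given in the series' design, whereas the annotation that names the rows here is for a different Affymetrix array.

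Of 35557 rows, 21789 have 1 gene symbol, 1621 several and 12147 none. For 999 genes with several rows the brightest was kept. Of the 19938 genes, 19856 were matched to RefSeq (GRCm38.p6). No column was unassigned and no arrays were identical. KO was compared with WT by limma (version 3.58.1, under R 4.3.3), fitting genotype alone. This left 4 residual degrees of freedom, and p-values had Benjamini-Hochberg adjustment over all genes. The fit was tested on 5 simulated sets of the 19938 genes, with independent values, no outlying array and no shift with expression level. Of 100 genes changed by a log2 of 1 it called 44 to 52, and of 100 changed by 2 it called 87 to 92. In these sets 1 to 6 unchanged genes were called. The real arrays held an outlying array and such a shift, so these counts do not give rates for them. Deviations from the group means correlated at 0.368, 0.119 and 0.162 between same-numbered arrays, all above the 0.1 set for pairing, so a fit with the number as a block is given where it changes a call. The pairing is weak: 2 differently numbered pairs correlated at 0.183 and 0.195, and the labels do not say what a number marks. Whether an array held cells of 1 mouse or of a pool is not stated. Therefore n counts arrays, and their small number limits the precision.

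The members and gene lists were chosen with earlier results of these data known. Named genes are the members, the listed genes past the threshold (else the 3 with the smallest p of a list), Rela, the sort genes and 5 genes with the profile closest to Il18r1. Alternatives were the block, 3 scalings, a filter on dim genes, 2 variance models, array weights, each array left out and the mean of a gene's rows.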

Additional observations from a re-analysis of the deposited data

How the results depend on the processing

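Over all genes 163 passed, and the count was 372 with the replicate block, 252 with cyclic loess normalization, 314 with arrays centred on their medians, 525 of the brighter genes with the dim genes left out and 1599 with array weights. Leaving out 1 array gave 21 to 929, the highest without WT replicate 1. Of the family members 0 passed, against 1 with the replicate block (Il18r1), 1 each with quantile and cyclic loess normalization (Sigirr), 2 with array weights and 0 to 2 with 1 array left out. Of the ligands 0 passed, against 1 with array weights (Il18) and 0 to 1 with 1 array left out. Of the inflammasome genes 0 passed, against 1 with the replicate block (Casp1), 2 with dim genes left out, 3 with array weights and 0 to 2 with 1 array left out. Of the NF-κB response genes 1 passed, against 2 with the replicate block (Lcn2 and Il6). The count was 2 with array weights (Lcn2 and Nfkbia) and 1 to 2 with 1 array left out, Nfkbia being added without WT replicate 1. Nfkbia, chosen for mention after its values were seen, was lower in KO with genotype alone fitted (log2 difference -0.43, limma adjusted p = 0.319). That value lay below the 5th percentile of its level class (-0.15). The replicate block changed no count of adaptor, orphan receptor or neighbour genes. In an alternative added after seeing the data, it raised the calls among stem cell markers to 4 (1 without it), mast cell and basophil markers to 5 (3), granulocyte-monocyte progenitor markers to 10 (9), and mature neutrophil and group 2 innate lymphoid cell markers to 1 each (0). With 1 array left out, granulocyte-monocyte progenitor calls ran from 4 to 10, mast cell and basophil calls from 1 to 4, stem cell calls from 0 to 6 and T and natural killer cell calls from 0 to 2, each highest without WT replicate 1. WT replicate 1 was the array whose removal added calls on Il18r1, Sigirr, Il18, Casp1 and Pycard.

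Signs turned in dim or small differences. Il1r2 was 0.069 with quantile and 0.063 with cyclic loess normalization, 0.040 with array weights and -0.29 to 0.044 with 1 array left out, the highest without WT replicate 1. Il1f5 was 0.036 with quantile and 0.026 with cyclic loess normalization, and Il1f10 was 0.0050 with the second. Il1rapl1 was 0.069, 0.056 and 0.043 with quantile, cyclic loess and array weights and -0.35 to 0.11 with 1 array left out, the highest without WT replicate 1. Slc9a4 was 0.057 with quantile, 0.071 with cyclic loess and -0.28 to 0.0012 with 1 array left out, the highest without WT replicate 1. Flt3 was -0.20 with quantile and with cyclic loess normalization and -0.12 with array weights, and with 1 array left out ran from -0.093 without WT replicate 1 to 0.29 without WT replicate 3. Cd34 was -0.26 with quantile, -0.27 with cyclic loess and from -0.070 without KO replicate 2 to 0.10 without WT replicate 3 when 1 array was left out. The causes were not tested. Il18r1, Il18rap, Sigirr and Il18 kept their sign in every alternative run. No alternative set values against the olfactory and vomeronasal receptor genes of an array. On that scale the groups overlapped for Il18r1, Il18rap, Sigirr and Il18. Members other than Sigirr fell out when dim genes were left out, which gave them no value there.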

Other observations

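Il6, a cytokine gene that IL-1 induces through NF-κB, was chosen for mention after its values were seen. It had log2 values of 4.55, 4.40 and 5.68 in KO, against 3.44, 3.49 and 3.68 in WT. All KO values lay higher, although only that of KO replicate 3 was above its array's dim mark. The log2 difference was 1.34 (SE 0.31, limma adjusted p = 0.087). Il6 passed with the replicate number as a block (limma adjusted p = 0.0248) and under none of the other 13 alternatives run.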
